A study of Homo sapiens with 8 samples.

Results

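The change of the interleukin-1 (IL-1) response by depletion of HDAC6 was measured gene by gene in SW1353 cells, an established human chondrosarcoma line used as a model of chondrocytes. For each gene the log2 fold change with IL-1 in siCon cells was subtracted from that in siHDAC6 cells, and the result is called the difference below. Members were the genes with a probe detected above background (detection p under 0.05) on all 8 arrays, so that the level before and after IL-1 could be read in either arm. This rule uses detection and not the response, and it took 8595 of the 11182 genes tested (76.9%). All cells carried an siRNA. In siCon cells this was Allstars, which targets no gene, and in siHDAC6 cells an siRNA against HDAC6, each given 24 h before IL-1, and the siCon + IL-1 and siHDAC6 + IL-1 cells were then given IL-1alpha for 6 h by the labels, whereas a legend of the study gives a longer time. Each of the 4 groups was hybridised to 2 Illumina whole-genome arrays. A single cell line and a single siRNA against HDAC6 were arrayed, and the study's methods call the treatments duplicates without saying whether these were set up independently, so that the p-values rest on the spread between duplicates alone.

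IL-1 binds a receptor that signals through MYD88 and the IRAK kinases to the IκB kinases and to the MAP kinases. IκB proteins are then degraded, NF-κB enters the nucleus, and genes for cytokines, chemokines and matrix-degrading proteases are switched on, while secreted interferon adds antiviral genes in many cells. HDAC6 is a mainly cytoplasmic deacetylase known for its action on α-tubulin, cortactin and HSP90. In a chondrocyte the response to IL-1 is known for matrix breakdown and for loss of the genes that mark cartilage.

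HDAC6 itself was not a member, since its probe was above background on 5 of the 8 arrays. Its normalized log2 signal was 6.36 and 6.32 on the siCon arrays, 6.63 and 6.46 on the siCon + IL-1 arrays, 5.14 and 4.87 on the siHDAC6 arrays and 4.84 and 4.87 on the siHDAC6 + IL-1 arrays. All 4 siCon arrays lay above all 4 siHDAC6 arrays, and the gene was above background on 1 of the 2 siHDAC6 arrays and on 0 of the 2 siHDAC6 + IL-1 arrays. The replicates of a group correlated at 0.991 to 0.993 over the members, and 29.3% to 34.1% of the probes of an array were above background. Of 12 chondrocyte markers, 3 were members (SOX9, COL11A1 and HAPLN1) and 7 were not detected on any array, among them ACAN, COMP and PRG4, while COL2A1 was detected on at most 4 arrays. Of 6 fibroblast and mesenchymal markers 5 were members, against 2 of 6 macrophage, 2 of 4 epithelial and 0 of 3 endothelial markers. At the edge of the rule APOM, ARHGEF10L and GNG4 were just inside (highest detection p 0.0487, differences of -0.07, 0.01 and 0.53) and ARHGAP31, CABYR and COL4A5 just outside (0.0501, differences of -0.03, 0.08 and 0.21).

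Among the members 1 gene, FST, had a smaller response in siHDAC6 cells and 1 gene, CROT, a smaller fall, at an adjusted p under 0.05 (limma, Benjamini-Hochberg over all genes tested), 2 of 8595 members against 0.116% of all genes tested (0.107% below and 0.00894% above 0). The other 11 genes called over the whole array were not members. Among these 11 were IL6, an inflammatory cytokine, and MMP13, a collagenase (adjusted p = 0.00555 for each). Both were above background on 4 of the 8 arrays, so that no size of the difference is given for them. Their adjusted p rests on the same unstimulated levels, which were too low to be read (4.44 to 4.69 for IL6 and 4.35 to 4.71 for MMP13). With IL-1, IL6 was at 11.75 and 11.86 in siCon and 9.74 and 9.60 in siHDAC6 cells, and MMP13 at 9.30 and 9.25 in siCon and 6.81 and 6.63 in siHDAC6 cells. MMP1, another collagenase and no member, was above background on 5 of the 8 arrays. It was not called here (adjusted p = 0.15) but was called in the authors' log2 values (adjusted p = 0.0015). With IL-1, MMP1 was at 9.99 and 10.27 in siCon and 8.93 and 8.67 in siHDAC6 cells. At an unadjusted p under 0.05 the difference was below 0 for 373 members and above 0 for 374, which is 8.69% of the members against a background of 9.98% (5.09% below and 4.89% above 0). The 4 array-to-array responses of siCon cells lay wholly above those of siHDAC6 cells for 966 members and wholly below for 1233, or 25.6% of the members against 24.7% of all genes tested (11.1% and 13.6%). Counted over all members, both shares were near those of the whole array.

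FST encodes follistatin, a secreted protein that binds activin. Its normalized log2 signal was 6.98 and 6.82 in siCon cells and 8.79 and 8.95 with IL-1, against 7.76 and 7.95 in siHDAC6 cells and 8.36 and 8.30 with IL-1. In siHDAC6 cells it therefore started higher and ended lower, and none of the 4 groups overlapped another. The 4 responses from array to array were 1.81 to 2.13 in siCon cells and 0.35 to 0.60 in siHDAC6 cells, and the difference was -1.49 (standard error 0.17, 95% interval -1.89 to -1.10, adjusted p = 0.028). As a fold change IL-1 raised FST 3.92-fold after siCon and 1.39-fold after siHDAC6.

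CROT encodes carnitine O-octanoyltransferase, a peroxisomal enzyme that hands medium-chain fatty acids on to carnitine. Its signal was 7.41 and 7.73 in siCon cells and 5.59 and 5.50 with IL-1, against 7.57 and 7.50 in siHDAC6 cells and 7.06 and 7.03 with IL-1. The unstimulated arrays of the 2 siRNAs overlapped, and the siCon + IL-1 arrays lay below all others. These siCon + IL-1 values were near the level of the genes at the edge of the rule (5.1 to 5.68), so the fall in siCon cells is less well measured. CROT was not a member at a detection p under 0.01. The responses were -2.23 to -1.81 in siCon and -0.54 to -0.44 in siHDAC6 cells, with a difference of 1.53 (standard error 0.18, 95% interval 1.12 to 1.95, adjusted p = 0.031). In the presence of siHDAC6 IL-1 left CROT at 0.712 of its unstimulated signal, against 0.246 after siCon. The calls of FST and CROT were lost in each of the 8 fits that left out 1 array (adjusted p from 0.053 to 0.19), with differences of -1.59 to -1.40 and 1.37 to 1.69. In the authors' log2 values the differences were smaller, -1.05 for FST (adjusted p = 1.4e-04) and 0.67 for CROT (adjusted p = 0.010), each outside its interval given above.

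The promoters of these genes are shown from RefSeq (GRCh38.p14), from 250 bases before the start of transcription to 50 after it, because NF-κB is the main factor of the IL-1 response. Capitals mark matches to the NF-κB consensus or to the core of the interferon-stimulated response element (ISRE; GAAA, any 2 bases, GAAA), both searched on both strands. The promoter of FST lies at chr5:53480379-53480678 on the plus strand and holds 1 NF-κB match on the minus strand, 47 bases before the start, and that of CROT lies at chr7:87345414-87345713 on the plus strand and holds 0 matches. 10.8% of the 27305 promoters of the table hold the NF-κB consensus and 3.65% the ISRE core, and a match describes letters and not a bound site.
FST: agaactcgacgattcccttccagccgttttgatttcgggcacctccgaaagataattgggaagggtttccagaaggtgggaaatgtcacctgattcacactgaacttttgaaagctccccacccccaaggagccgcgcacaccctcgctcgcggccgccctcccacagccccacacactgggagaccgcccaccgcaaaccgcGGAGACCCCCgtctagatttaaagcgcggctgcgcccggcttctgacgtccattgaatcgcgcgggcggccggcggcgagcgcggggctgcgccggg
CROT: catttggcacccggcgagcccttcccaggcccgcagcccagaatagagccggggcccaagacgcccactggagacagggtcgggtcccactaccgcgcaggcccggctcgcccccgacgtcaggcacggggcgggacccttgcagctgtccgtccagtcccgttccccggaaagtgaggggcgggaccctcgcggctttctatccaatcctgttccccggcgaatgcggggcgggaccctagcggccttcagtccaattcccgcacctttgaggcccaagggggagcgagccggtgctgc

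**Figure D1:**
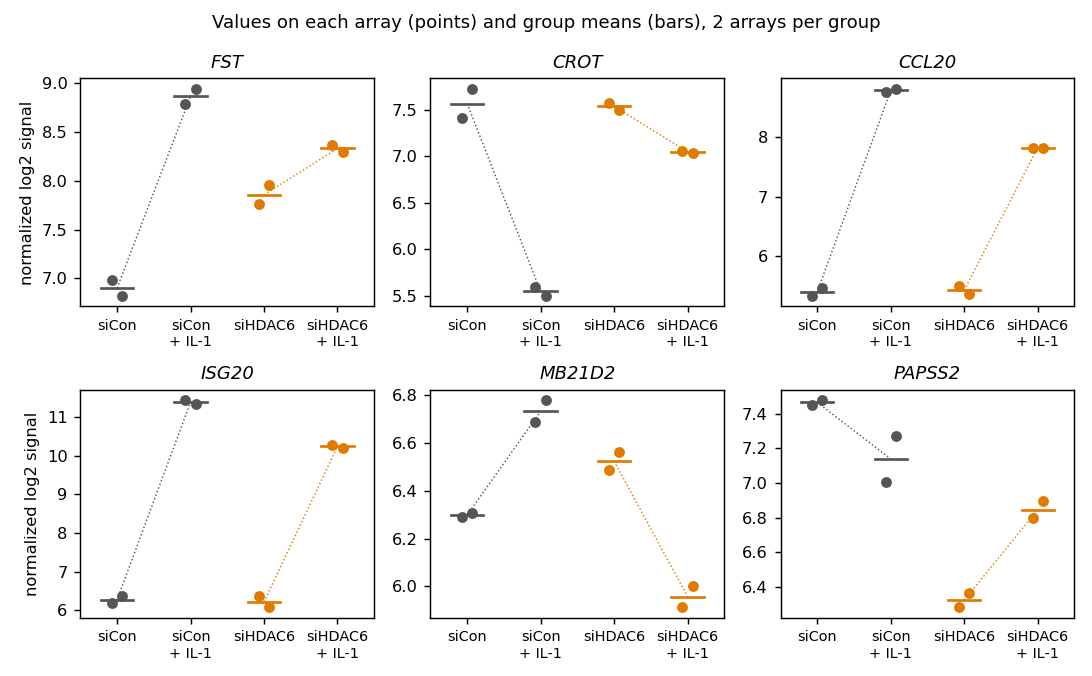
Normalized log2 signal (y axis) of 6 genes in the 4 groups (x axis), with a point for each of the 2 arrays and a bar at the group mean. FST and CROT start and end at different distances in siCon (grey) and siHDAC6 cells (orange), CCL20 and ISG20 overlap between the arms without IL-1 and part in the IL-1 groups, and MB21D2 and PAPSS2 move in opposite directions in the 2 arms. Without IL-1, CCL20 is near the level of the genes at the edge of the rule.

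The members were then grouped by the mean of the 2 IL-1 responses, whose estimate is independent of that of their difference in this balanced design. The p-values of both use the same spread of each gene, however, so that classing by p favours genes with a small spread. The shares of a class at an unadjusted p under 0.05 or with ranges apart are therefore not independent of the classing. Of all genes tested, 10.9% had a mean response above 0 and 16.1% below 0 at an adjusted p under 0.05. With a change over 1.5-fold also required, 495 members were raised by IL-1, 287 were lowered and 7813 were in neither class. In the raised members the median response was 1.16 in siCon cells and 0.87 in siHDAC6 cells. The difference was below 0 in 427 of the 495 (86.3%) with a median of -0.30 and quartiles of -0.48 and -0.13, beside a median of 0.02 over all genes tested. At an unadjusted p under 0.05 it was below 0 in 159 and above 0 in 3 of them (32.7% against the background of 9.98%). The response ranges of the 2 arms were apart in 281 raised members, with the siHDAC6 range the lower one in 268 and the higher one in 13 (56.8% against 24.7%). Each array was also given the median, over the raised members, of the signal centred on the mean of each gene. Between arrays this median rose by 1.19 to 1.24 for the 4 pairs of siCon arrays and by 0.90 to 0.91 for the 4 pairs of siHDAC6 arrays.

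The lowered members moved the opposite way. Their median response was -0.88 in siCon and -0.63 in siHDAC6 cells, and the difference was above 0 in all but 52 of the 287, with a median of 0.25 and quartiles of 0.08 and 0.44. Differences with an unadjusted p below 0.05 were above 0 in 88 and below 0 in 2 (31.4%), and the ranges were apart in 138 upwards and 10 downwards. The same array median over this class changed by -0.93 to -0.88 for the pairs of siCon arrays and by -0.66 to -0.64 for the pairs of siHDAC6 arrays. In the members of neither class the median difference was 0.03, with 212 below and 283 above 0 at an unadjusted p under 0.05 (6.34%). With median scaling in place of quantile normalization the median difference of all genes moved from 0.02 to 0.22, and relative to it the raised members were at -0.30 and the lowered members at 0.28.

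In all 159 raised members below 0 at that p the response in siHDAC6 cells was smaller but still above 0, and in all 88 lowered members above 0 it was smaller but still below 0. The smaller size follows from the class rule together with the sign of the difference. The class rule also left little room for a change of sign, since it set a minimum size of the mean response. The 5 exceptions in direction at that p, named after their values were seen, were MMP7, RAB7B and IFI16, with a larger rise in siHDAC6 cells, and AK5 and NEUROG2, with a larger fall. MMP7, matrilysin, had responses of 1.68 in siCon and 2.13 in siHDAC6 cells (difference 0.45, unadjusted p = 0.019). IFI16, a nuclear sensor of DNA, had responses of 1.52 and 1.98 (0.46, unadjusted p = 0.045), and RAB7B, a small GTPase, of 0.65 and 1.27 (0.61, unadjusted p = 0.012). AK5, an adenylate kinase, had responses of -0.90 and -1.28 and NEUROG2, a transcription factor, of -0.38 and -0.82. None of the 5 passed the adjusted threshold here or in the authors' log2 values.

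**Figure D2:**
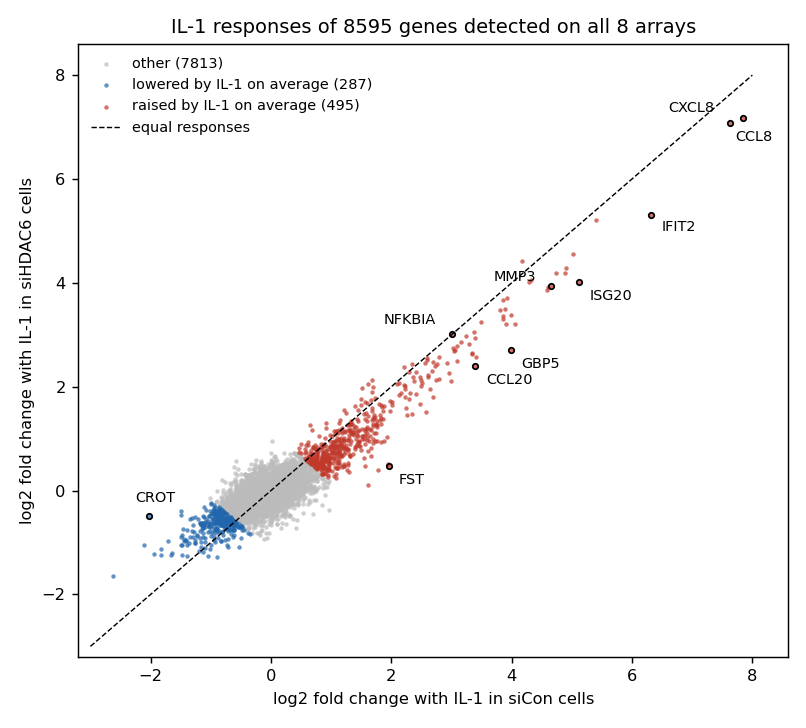
Log2 fold change with IL-1 in siCon cells (x axis) against that in siHDAC6 cells (y axis), with a point for each of the 8595 members. Most of the 495 raised members (red) lie below the dashed line of equal responses and most of the 287 lowered members (blue) above it, with FST and CROT far from it and NFKBIA on it.

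IL-1 changed 1869 members in siCon cells (813 up, 1056 down) and 907 in siHDAC6 cells (501 up, 406 down) at an adjusted p under 0.05, against 20.6% (9.37% and 11.2%) and 10.3% (5.99% and 4.27%) of all genes tested. Over all 8595 members the 2 responses had a Pearson's r of 0.878 and a Spearman's rho of 0.657. Within the classes the values below depend on the classing, which was cut on the mean of these same 2 responses. The raised and the lowered members can therefore not be compared by them. Across the 495 raised members Pearson's r was 0.952 and Spearman's rho 0.784, and the median ratio of the siHDAC6 to the siCon response was 0.783. Across the 287 lowered members r was 0.413 and rho 0.185, with a median ratio of 0.714. These values run over genes, which are not independent replicates, and all genes share the same 8 arrays. NFKBIA, which encodes IκBα and is itself an NF-κB target, showed no measurable difference. Its signal was 9.33 and 9.55 in siCon cells, 12.37 and 12.53 with IL-1, 9.18 and 9.19 in siHDAC6 cells and 12.26 and 12.15 with IL-1. Its responses were 3.01 and 3.02 with overlapping ranges, and the 95% interval of the difference was -0.37 to 0.40.

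The arms parted mainly in the presence of IL-1. Over the raised members the median effect of siHDAC6 was -0.01 without IL-1 and -0.33 with it, and over the lowered members 0.00 and 0.24. Some raised members named below were near the level at the edge of the rule before IL-1, such as CCL20, PIM2, CXCL8, TNFSF13B and IFI44L. In such genes an effect of siHDAC6 without IL-1 is less well measured. Among the 159 raised members with a smaller rise at an unadjusted p under 0.05, the effect of siHDAC6 was larger with IL-1 in 126 and larger without it in 33, and it had opposite signs in the 2 states, both at an unadjusted p under 0.05, in 8, where 19.6% of all genes passed that p for siHDAC6 without and 25.1% with IL-1. Among the 88 lowered members with a smaller fall it was larger with IL-1 in 58 and without it in 30, with opposite signs in 5. Over all members siHDAC6 changed 402 genes without IL-1 (168 up, 234 down) and 720 with it (348 up, 372 down) at an adjusted p under 0.05. Over all genes tested these shares were 4.05% (1.64% and 2.41%) and 8.07% (3.65% and 4.42%). FST is 1 of the members in which siHDAC6 acted in opposite directions, with an effect of 0.96 without IL-1 (adjusted p = 0.0057) and of -0.54 with it (adjusted p = 0.036).

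After FST, none of the next 9 members by p below 0 passed the adjusted threshold (adjusted p from 0.062 to 0.10). CCL20, a chemokine for CCR6-bearing lymphocytes, was at 5.32 and 5.46 in siCon cells, 8.76 and 8.82 with IL-1, 5.49 and 5.35 in siHDAC6 cells and 7.83 on both arrays with IL-1. The unstimulated arrays overlapped and the IL-1 arrays did not, and its response was 10.5-fold after siCon and 5.30-fold after siHDAC6 (difference -0.99, standard error 0.15). The unstimulated values of CCL20 were near the level of the genes at the edge of the rule (5.1 to 5.68). Their overlap and the fold changes are therefore less well measured. ISG20, an interferon-induced exonuclease that degrades RNA, was at 6.18 and 6.36, and 11.43 and 11.33 with IL-1, against 6.36 and 6.08, and 10.29 and 10.19 with IL-1 after siHDAC6. It rose 34.6-fold and 16.2-fold, and again the unstimulated arrays overlapped and the IL-1 arrays did not (difference -1.09, standard error 0.18). GBP5, a guanylate-binding protein of host defence, had responses of 3.95 to 4.03 in siCon and 2.43 to 2.97 in siHDAC6 cells from array to array. PIM2, a serine/threonine kinase that promotes survival, had responses of 2.40 to 2.74 and 1.41 to 1.62. In GBP5 and PIM2 too the ranges of the 2 arms were apart, by a gap larger than either range.

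The other 5 differed in how far the arms were apart before IL-1. HILPDA, a hypoxia-induced protein of lipid droplets, was at 6.02 and 5.81, 7.43 and 7.62 with IL-1, and after siHDAC6 at 6.55 and 6.16, and 6.61 and 6.31 with IL-1. It rose 3.05-fold in siCon cells, whereas in siHDAC6 cells the array-to-array responses ran from -0.24 to 0.45, on both sides of 0. STARD5, a carrier of sterols and bile acids, had responses of 1.57 and 0.48, and the effect of siHDAC6 was 0.79 without and -0.29 with IL-1. RP2, a GTPase-activating protein linked to retinitis pigmentosa, had responses of 1.29 and 0.36, with siHDAC6 effects of 0.72 and -0.22. SBK1, a kinase of the SH3-binding domain family, had responses of 1.66 and 0.67 with effects of 0.14 and -0.85, and so resembled CCL20 more than RP2. MB21D2 was the only one of these genes in neither class, with responses of 0.43 and -0.57 (standard error of the difference 0.14, adjusted p = 0.062).

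The promoters of CCL20, ISG20 and IFI44L are shown because they stand for the chemokines and the interferon-stimulated genes described below. That of CCL20 lies at chr2:227813592-227813891, that of ISG20 at chr15:88638766-88639065 and that of IFI44L at chr1:78620198-78620497, all on the plus strand. CCL20 has 1 NF-κB match on the minus strand 79 bases before the start, ISG20 has 1 ISRE core 69 bases before it, and IFI44L has 2 ISRE cores 164 and 73 bases before it.
CCL20: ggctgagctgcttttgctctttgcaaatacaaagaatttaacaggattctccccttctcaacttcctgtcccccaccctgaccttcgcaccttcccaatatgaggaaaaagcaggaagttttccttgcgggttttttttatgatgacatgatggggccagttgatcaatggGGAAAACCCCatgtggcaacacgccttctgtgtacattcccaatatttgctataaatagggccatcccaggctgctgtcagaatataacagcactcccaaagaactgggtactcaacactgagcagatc
ISG20: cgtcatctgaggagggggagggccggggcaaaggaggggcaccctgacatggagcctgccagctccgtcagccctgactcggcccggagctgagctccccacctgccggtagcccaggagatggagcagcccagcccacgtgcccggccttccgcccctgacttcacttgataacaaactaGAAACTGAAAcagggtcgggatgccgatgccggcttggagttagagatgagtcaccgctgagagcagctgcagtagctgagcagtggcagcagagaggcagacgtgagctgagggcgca
IFI44L: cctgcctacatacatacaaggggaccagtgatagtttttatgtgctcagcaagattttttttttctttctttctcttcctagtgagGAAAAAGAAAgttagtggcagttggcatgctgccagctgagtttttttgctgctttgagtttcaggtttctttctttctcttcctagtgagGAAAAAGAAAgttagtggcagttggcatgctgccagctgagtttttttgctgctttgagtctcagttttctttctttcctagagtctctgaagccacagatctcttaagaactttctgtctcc

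Promoters were matched for 407 of the 495 raised members. The ISRE core was in 15% of them, in 22 of 126 (17.5%) of those with a smaller rise at an unadjusted p under 0.05 and in 39 of 281 (13.9%) of the other raised members, beside 2.87% of all members with a promoter. The NF-κB consensus was in 12.7% of the first and 15.3% of the second, beside 12.8% of all members. Among the lowered members with a smaller fall it was in 11 of 66 promoters (16.7%), and the ISRE core was in 0 of 66. These shares are a description of the letters in these windows.

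The members above 0 with the smallest p after CROT had responses below 0 in siCon cells and smaller or opposite ones in siHDAC6 cells (adjusted p of the difference from 0.074 to 0.17, none past the threshold). EVI2A, a membrane protein encoded within the neurofibromin gene, was at 6.86 and 6.81 in siCon cells, 5.44 and 5.24 with IL-1, 6.45 and 6.41 in siHDAC6 cells and 5.79 and 6.12 with IL-1. The siCon + IL-1 arrays were again below all others, with responses of -1.50 and -0.48. CAPRIN2, an RNA-binding protein, had responses of -1.34 and -0.54, INKA1, an inhibitor of the kinase PAK4, of -1.31 and -0.52, and EPN2, an endocytic adaptor of the epsin family, of -0.99 and -0.24. FRG2B had responses of -1.49 and -0.39, but it belongs to a family of near-identical copies that a probe may not separate, so its value is uncertain.

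GCNT3, a glycosyltransferase of mucin-type glycans, and TGFA, a ligand of the EGF receptor, were lower with siHDAC6 before IL-1 was given. GCNT3 was at 10.02 and 9.88 in siCon cells, 9.33 and 9.23 with IL-1, 8.84 and 8.74 in siHDAC6 cells and 8.92 and 8.87 with IL-1. It fell with IL-1 in siCon cells with a response of -0.67 (adjusted p = 0.0034) and had a response of 0.10 in siHDAC6 cells (adjusted p = 0.60, difference 0.77, standard error 0.15), and its siHDAC6 arrays lay below all siCon arrays in either state. TGFA had responses of -1.01 and -0.15, with siHDAC6 effects of -0.55 without and 0.31 with IL-1. GATD1 fell in siCon cells (-0.56, adjusted p = 0.0076) and rose in siHDAC6 cells (0.41, adjusted p = 0.044). PAPSS2 makes the sulfate donor used for cartilage proteoglycans. Its response was -0.33 in siCon cells (adjusted p = 0.096) and 0.52 in siHDAC6 cells (adjusted p = 0.031). The signal was 7.45 and 7.48 in siCon cells, 7.004 and 7.27 with IL-1, 6.28 and 6.37 in siHDAC6 cells and 6.80 and 6.90 with IL-1, so that the groups did not overlap and the gap between the siRNAs narrowed with IL-1.

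**Figure D3:**
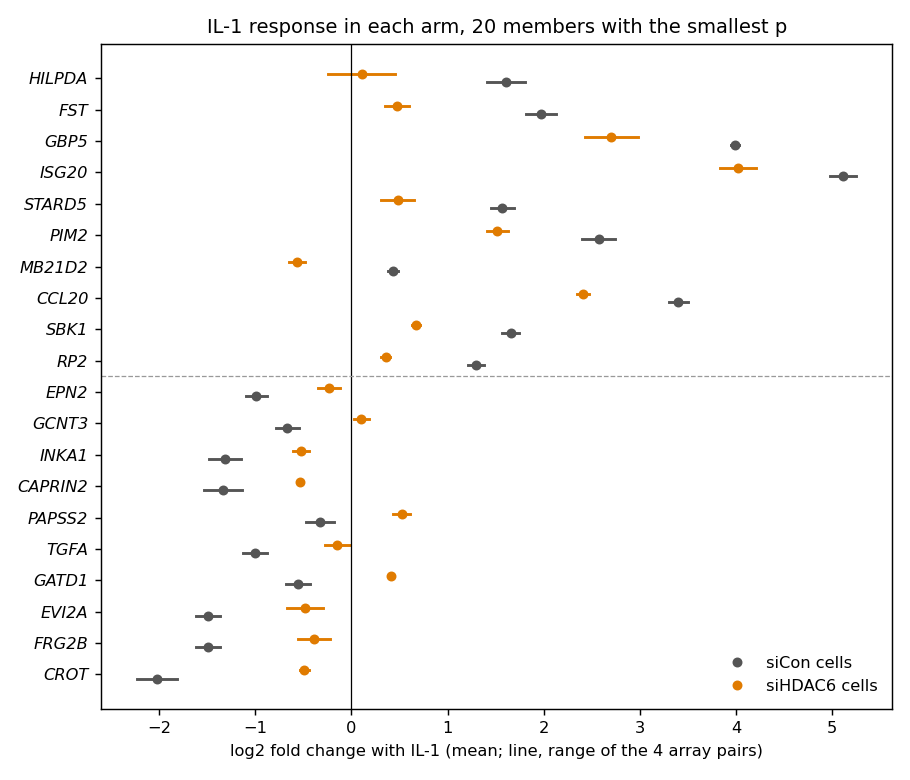
Log2 fold change with IL-1 (x axis) in siCon (grey) and siHDAC6 cells (orange) for the 10 members in each direction with the smallest p of the difference, with points at the means and lines over the range of the 4 array pairs. Above the dashed line the siHDAC6 response is the lower one and below it the higher one, and no range of one arm overlaps that of the other.

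Responses of opposite sign, each at an unadjusted p under 0.05, were seen in 13 members, 7 with a rise in siCon and a fall in siHDAC6 cells and 6 the other way, where 33.3% and 24.9% of all genes passed that p in the 2 arms. MB21D2, GATD1 and PAPSS2 are described above. Named after their values were seen, NXN, a thioredoxin-like protein, had responses of 0.53 and -0.43, CADM1, a cell adhesion molecule, of 0.44 and -0.24, and NCAM1, also an adhesion molecule, of 0.31 and -0.25. ECI1, an isomerase of mitochondrial fatty acid oxidation, had responses of -0.30 and 0.32, and ARHGAP22, a GTPase-activating protein for Rac, of -0.30 and 0.41. The largest of these responses in size was the -0.57 of ZNRD2 in siCon cells. All 13 were in neither class, which follows from the class rule, since responses of opposite sign and this size cannot average over 1.5-fold.

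In the authors' own log2 values, which use another background treatment and normalization, the difference was called for many more members. It was below 0 for 82 and above 0 for 40 at an adjusted p under 0.05 (1.42% of the members against 1.47% of all genes tested, 1.06% below and 0.402% above). All 122 had the same sign from the unnormalized signals, with response ranges apart, and 118 of them had an unadjusted p under 0.05 there. Of the 82 below 0, 64 were raised members and 18 in neither class, and of the 40 above 0, 18 were lowered members and 22 in neither class. The median difference in those values was -0.22 in the raised and 0.17 in the lowered members, beside 0.01 over all genes. The genes called there with the smallest p include MMP10 (stromelysin 2), with responses of 3.05 and 2.70 from the unnormalized signals and a difference of -0.35, against -0.95 in the authors' values (adjusted p = 2.7e-04). Upwards they include OXR1, an oxidation-resistance protein (0.67 and 0.60, adjusted p = 0.0078 in the authors' values), CCDC9B (0.59 and 0.53, adjusted p = 0.0076) and CRYGS, a crystallin (0.41 and 0.57, adjusted p = 0.0080). Differences of other genes named above were smaller there, such as -0.77 for HILPDA, -0.44 for MB21D2, 0.35 for GATD1 and 0.21 for EPN2. CRYGS also differed between the siRNAs without IL-1 by -2.73 and with IL-1 by -2.33. For MMP10 the effect of siHDAC6 without IL-1 was -1.41, and -0.66 in the authors' values. Its siHDAC6 arrays without IL-1, at 5.64 and 5.63, were near the level at the edge of the rule, so its difference is less well measured.

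**Figure D4:**
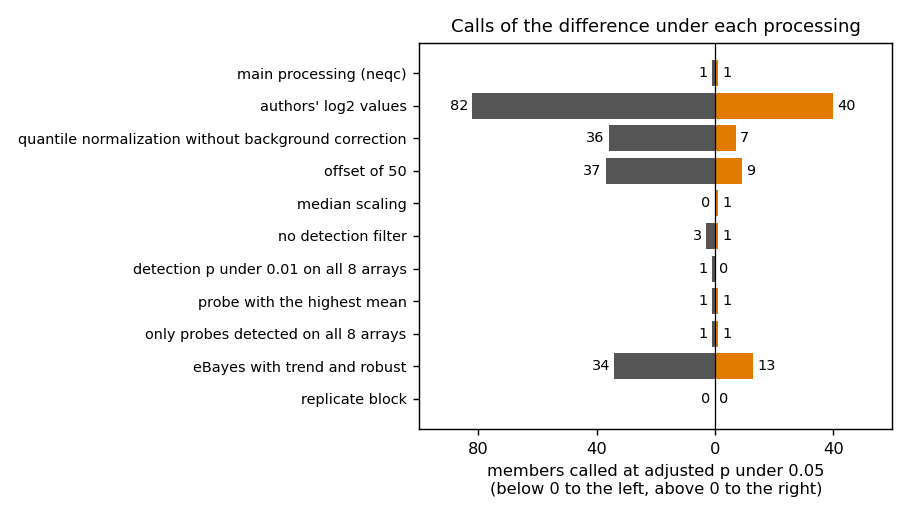
Number of members called for the difference at an adjusted p under 0.05 (x axis, below 0 to the left and above 0 to the right) under each way of processing the signals (y axis). The count runs from 0 with the replicate number as a block to 82 below and 40 above 0 in the authors' log2 values.

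The members of 18 gene lists were read against these counts, ordered here by their place in the response. Of all genes tested, 5.09% were below and 4.89% above 0 at an unadjusted p under 0.05, and of the 495 raised members 159 and 3. The difference was below 0 in 3943 of all 8595 members. With median scaling the list medians stayed below 0 only for chemokines (-0.35), interferon-stimulated genes (-0.16) and NF-κB genes (-0.03), and the other medians given below 0 here were above 0, beside 0.22 over all genes. Of 12 members of IL-1 receptor signalling, 6 had a difference below and 6 above 0 (median 0.02), and 0 and 1 had an unadjusted p under 0.05. MYD88, the adaptor of the receptor, had responses of 2.22 and 2.38 and IRAK2, a kinase of the receptor complex, of 3.25 and 2.98, with unadjusted p = 0.29 and 0.15. The 1 gene was PELI2, an E3 ubiquitin ligase that acts on IRAK proteins, at 7.90 and 7.64 in siCon cells, 6.56 and 6.18 with IL-1, 7.17 and 7.12 in siHDAC6 cells and 6.39 and 6.37 with IL-1. Its fall was smaller in siHDAC6 cells by 0.63 (standard error 0.21, unadjusted p = 0.018, adjusted p = 0.39), and the IL-1 arrays of the 2 arms overlapped. Of 10 MAP kinase phosphatases and ERK feedback genes 0 had an unadjusted p under 0.05 (median 0.10).

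Of 19 genes for NF-κB subunits, their inhibitors and feedback regulators, 13 were raised members, the median response was 1.56 in siCon and 1.06 in siHDAC6 cells, and the median difference was -0.26. It was below 0 at an unadjusted p under 0.05 in 3 and above 0 in 1, beside 159 and 3 of the 495 raised members. RELA, the transactivating p65 subunit, was at 6.05 and 5.88, 7.37 and 7.27 with IL-1, and after siHDAC6 at 6.32 and 6.24, and 6.97 and 6.98 with IL-1. The gene started higher and ended lower with siHDAC6 on every array, with responses of 1.36 and 0.70 (difference -0.66, standard error 0.15, unadjusted p = 0.0025, adjusted p = 0.21). NFKBIB, the inhibitor IκBβ, had responses of 0.79 and 0.29 (unadjusted p = 0.012). The remaining 2, named after their values were seen, were CYLD, a deubiquitinase that restrains NF-κB (1.56 and 1.06, unadjusted p = 0.024), and TNIP2, a binding partner of A20 (0.02 and 0.95, unadjusted p = 0.037). The siCon arrays of TNIP2 were far apart, at 5.43 and 6.27.

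Chemokines had the lowest median of the 18 lists, -0.53, though only 6 were members. In 5 the difference was below 0, in 4 of them at an unadjusted p under 0.05 (CCL20, CCL8, CXCL8 and, named after its value was seen, CXCL16). Raised members made up 5 of the 6, and over all 495 raised members 159 were below 0 at that p. CCL8, a monocyte chemokine, was at 6.03 and 6.07 in siCon cells, 13.95 and 13.82 with IL-1, 5.48 and 5.75 in siHDAC6 cells and 12.87 and 12.73 with IL-1, a 229-fold and a 145-fold rise (difference -0.66, standard error 0.18, adjusted p = 0.31). CXCL8, the neutrophil chemokine IL-8, rose 197-fold and 135-fold. For both genes the IL-1 arrays of the arms did not overlap. The unstimulated arrays of CXCL8 were near the level at the edge of the rule, so its fold changes are less well measured. Of 10 cytokines and growth factors 8 had a difference below 0 (median -0.14). TNFSF13B, the B-cell factor BAFF, was at 5.36 and 5.12, 9.84 on both arrays with IL-1, and after siHDAC6 at 5.11 and 5.10, and 9.04 and 9.02 with IL-1 (difference -0.68, unadjusted p = 0.0027, adjusted p = 0.22). GDF15, a stress-induced cytokine, had responses of 0.89 and 0.57 (unadjusted p = 0.046). HBEGF, an EGF receptor ligand named after its value was seen, lay on the other side with responses of 0.51 and 0.90 (unadjusted p = 0.052).

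All 37 interferon-stimulated members rose with IL-1 in either arm at an adjusted p under 0.05, as 9.37% of all genes did in siCon and 5.99% in siHDAC6 cells. The median response was 3.02 in siCon and 2.64 in siHDAC6 cells, and the median difference was -0.38, beside -0.30 over all raised members. It was below 0 in 33 of the 37, beside 427 of the 495 raised members. At an unadjusted p under 0.05 it was below 0 in 14 and above 0 in 0, beside 159 and 3 of the 495. The ranges were apart downwards in 22 and upwards in 0, beside 268 and 13 of the 495. In the authors' values 11 were called below 0 and 0 above, beside 64 and 0 of the 495. IFI44L, a feedback regulator of interferon signalling, was at 5.46 and 5.58, 7.81 and 7.94 with IL-1, and after siHDAC6 at 5.44 and 5.56, and 6.96 and 6.99 with IL-1. Its unstimulated arrays overlapped and its IL-1 arrays did not (difference -0.88, standard error 0.15, unadjusted p = 4.6e-04, adjusted p = 0.10). The unstimulated arrays of IFI44L were near the level at the edge of the rule. Named after their values were seen, MX1, a GTPase that blocks influenza virus, had responses of 4.05 and 3.21, and IFIT2, which binds viral RNA, of 6.32 and 5.31 (unadjusted p = 0.0012 and 0.0024). Differences near 0 were seen in IRF1, a transcription factor induced directly by NF-κB (2.59 and 2.55), IRF9, a subunit of the interferon-activated factor ISGF3 (1.56 and 1.71), and OAS1, which makes the activator of RNase L (2.56 and 2.47). Within the list the differences ran from -1.09 to 0.25.

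Of 19 matrix proteases and inhibitors, of which 5 were raised members, the difference was below 0 at an unadjusted p under 0.05 in 4 and above 0 in 1, MMP7. Of all genes tested 5.09% and 4.89% were, and of the 495 raised members 159 and 3. MMP3, stromelysin 1, was at 7.50 and 7.29 in siCon cells, 12.03 and 12.06 with IL-1, 7.27 and 7.16 in siHDAC6 cells and 11.15 on both arrays with IL-1, a 25.2-fold and a 15.3-fold rise (difference -0.73, standard error 0.16, adjusted p = 0.18). PLAT, tissue plasminogen activator, was at 6.30 and 6.42, 8.56 and 8.66 with IL-1, and after siHDAC6 at 5.49 and 5.85, and 6.95 and 7.31 with IL-1. Its siHDAC6 arrays lay below its siCon arrays in either state, and its responses were 2.25 and 1.46. TIMP3, a matrix-bound inhibitor named after its value was seen, had responses of 0.38 and -0.12, while TIMP1 and TIMP2 had differences of 0.02 and 0.11. Of 29 cartilage and fibrillar matrix genes 2 were below 0 at that p, CEMIP, which takes part in hyaluronan breakdown (2.96 and 2.26), and DCN, the proteoglycan decorin (0.86 and 0.50), and the median was -0.05. SOX9, the master transcription factor of cartilage, was a lowered member with responses of -1.16 and -0.67 (difference 0.50, unadjusted p = 0.019, named after its value was seen).

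**Figure D5:**
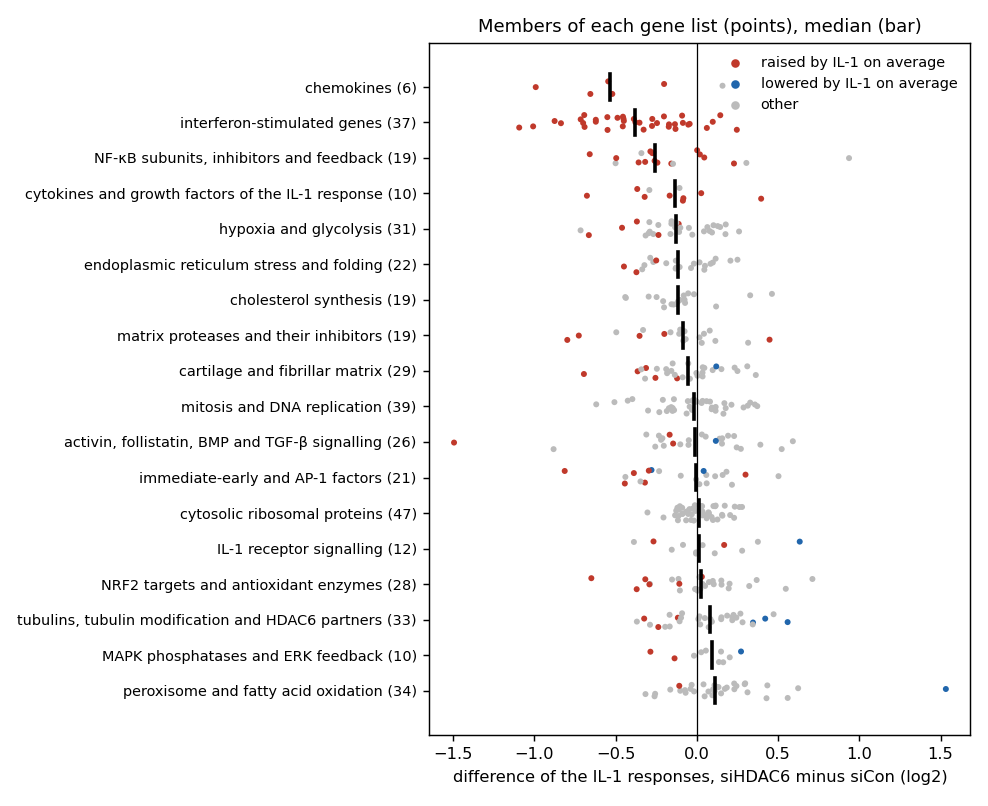
Difference of the IL-1 responses, siHDAC6 minus siCon, on the log2 scale (x axis) for the members of the 18 gene lists (y axis, number of members in brackets), with points coloured by class and a bar at the median. Chemokines and interferon-stimulated genes have the lowest medians, -0.53 and -0.38, ribosomal protein genes lie around 0, and FST and CROT are the outermost points.

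Of 21 immediate-early and AP-1 factors 11 were below and 10 above 0. ATF3, a stress-induced repressor and activator of the ATF family, was at 6.64 and 6.37, 8.94 and 9.01 with IL-1, and after siHDAC6 at 6.57 and 6.44, and 8.17 and 8.16 with IL-1. Before IL-1 the arms overlapped and with IL-1 they did not (difference -0.81, standard error 0.17, unadjusted p = 0.0015, adjusted p = 0.17). MAFF, a small Maf protein, had responses of 0.84 and 0.45, whereas JUN had 0.47 in both arms. Of 31 hypoxia and glycolysis genes, of which 5 were raised members, 4 were below and 0 above 0 at an unadjusted p under 0.05 (median -0.13). Of all genes tested 5.09% and 4.89% were, and of the 495 raised members 159 and 3. HK2, hexokinase 2, had responses of 1.57 and 0.90, ANKRD37, a hypoxia-induced ankyrin protein, of 0.95 and 0.49, and the others, named after their values were seen, were EGLN1, an oxygen-sensing prolyl hydroxylase (0.71 in siCon cells and close to 0 in siHDAC6 cells), and PFKFB4, a regulator of glycolysis (1.25 and 0.89). GAPDH, ENO1 and PGK1, enzymes of lower glycolysis, had differences of 0.10, 0.04 and 0.08.

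Of 34 members for peroxisomes and fatty acid oxidation, 23 were above 0 and 11 below, where 3943 of all 8595 members were below 0, and the median was 0.11 against 0.02 over all genes. At an unadjusted p under 0.05 there were 3 above and 0 below 0, where 4.89% and 5.09% of all genes were. CROT and ECI1 are described above, and SLC25A20, the mitochondrial carnitine carrier, had responses of -0.79 and -0.23 (unadjusted p = 0.022, named after its value was seen). CRAT, CPT1A and CPT2, the other carnitine acyltransferases among the members, had differences of 0.23, 0.17 and 0.04 with unadjusted p = 0.41, 0.51 and 0.80. Of the 33 tubulins, tubulin-modifying enzymes and HDAC6 partners 22 were above 0 (median 0.08), 3 at an unadjusted p under 0.05. TUBA4A, an α-tubulin, was at 7.87 and 7.68 in siCon cells, 6.42 and 6.78 with IL-1, 8.20 and 8.24 in siHDAC6 cells and 7.54 and 7.65 with IL-1, so that it was higher with siHDAC6 in either state and fell by less (difference 0.56, standard error 0.20, adjusted p = 0.42). HSP90AB1, a constitutive HSP90, had responses of -0.41 and 0.06, and DNAJB1, an HSP40 cochaperone named after its value was seen, of -0.96 and -0.54.

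Of 26 genes of activin, follistatin, BMP and TGF-β signalling, 13 were below and 13 above 0. TGFBR3, the coreceptor betaglycan, was at 8.67 and 8.56, 8.64 and 8.59 with IL-1, and after siHDAC6 at 8.73 and 8.72, and 9.29 and 9.34 with IL-1. The arrays of the other 3 groups lay between 8.56 and 8.73, below both siHDAC6 + IL-1 arrays (responses of 0.00 and 0.59, unadjusted p = 0.0029, adjusted p = 0.22). FSTL3, a follistatin-like activin binder named after its value was seen, had responses of 0.24 and -0.64 (unadjusted p = 0.025), with siCon arrays at 6.07 and 5.30. BMP2 and SMAD3, raised members, had differences of -0.17 and -0.15.

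In the endoplasmic reticulum stress list 14 of 22 were below 0 (median -0.12), with DNAJB9, a cochaperone of BiP, at responses of 0.96 and 0.51 and DDIT3, the factor CHOP, at 0.33 and close to 0 (unadjusted p = 0.020 and 0.048). Of 19 genes of cholesterol synthesis 16 were below 0, where 3943 of all 8595 members were, with a median of -0.12. LSS, lanosterol synthase, was at 0.65 and 0.21 (unadjusted p = 0.018). ACAT2, which makes acetoacetyl-CoA, was above 0 (0.46, unadjusted p = 0.028), but with its probe detected on all 8 arrays alone the difference was -0.17. The NRF2 list had 2 members in each direction at an unadjusted p under 0.05, led by AKR1C2, an aldo-keto reductase of steroids (2.24 and 1.59), and SRXN1, sulfiredoxin (-0.39 and 0.15). Of 39 genes of mitosis and DNA replication 1 passed that p, KIF23, a kinesin of cytokinesis, with responses of -0.08 and -0.70. Of 47 cytosolic ribosomal protein genes 0 passed it in either direction, and their median was 0.02, close to that of all genes.

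The share of members with an unadjusted p under 0.05 fell with signal, from 286 of the 2865 members with the lowest signal to 272 of the next 2865 and 189 of the 2865 with the highest. The calls of the authors' values ran the other way, with 14, 54 and 54, and FST and CROT lie in the middle group. The median standard error of the difference was 0.21, 0.18 and 0.16 in these 3 groups. Under 9 ways of processing the signals, 27 members were called below and 6 above 0 in at least 4, and CROT was called in 8, FST in 7, and MB21D2 and RP2 in 5.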

How the data were processed

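SW1353 cells in 4 groups of 2 samples were profiled on Illumina whole-genome arrays. The deposited intensity values are probe signals that the authors did not normalize, each with a deposited detection p-value against the negative controls of the array, and the authors' log2 values came from lumi, with a variance-stabilising step and then robust spline normalization. Bead-level summary software was not given in the sources used here.

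The signals were background-corrected and quantile-normalized with neqc (limma 3.58.1, R 4.3.3, statmod 1.5.0, offset of 16, controls inferred from the detection p-values). The annotation gave 1 gene symbol to 27578 of 48803 probes, more than 1 to 13 and no symbol to 21212, and 27541 matched RefSeq. This annotation is that of an earlier Illumina array than the one named in the study's methods, and probes were matched to it by their ID, so that a probe without a symbol here may have a gene. Of the probes with 1 symbol, 14483 were detected on at least 2 arrays, and probes of a gene were averaged, giving 11182 genes. This average held a probe not detected on all 8 arrays in 892 members, among them STARD5, GATD1, FRG2B, NFKBIB, TNFSF13B, IFI44L, ACAT2, MAFF and CXCL8. A model of the 4 group means was fitted with limma (lmFit, eBayes, 4 residual degrees of freedom), and p-values were adjusted by Benjamini-Hochberg over all genes. The limma fit was tested on simulated data. The small number of arrays limits the precision, and slides were not known.

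Genes were named if called for the difference, if among the 10 smallest p-values in each direction, as up to 2 genes per list at an unadjusted p under 0.05, as the leading 5 in each direction by adjusted p in the authors' log2 values, or as genes the study names. Members and lists were chosen with earlier results of these data known. The alternatives changed the background correction, the offset, the normalization, the detection filters, the choice of probe, the variance moderation and the arrays used, and added a replicate block.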

Additional observations from a re-analysis of the deposited data

Results flagged for a closer look

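FST and CROT had IL-1 responses that differed between siCon and siHDAC6 cells by the test of the difference itself (limma, adjusted p = 0.028 and 0.031). The difference was -1.49 for FST and 1.53 for CROT on the log2 scale, and -1.05 and 0.67 in the authors' values. Both calls were lost with the replicate block (adjusted p = 0.078 for each) and in all 8 fits without 1 array. The call of FST was also lost with median scaling, and CROT was not a member at a detection p under 0.01. All 4 array pairs of siHDAC6 cells lay below all 4 of siCon cells for FST and above them for CROT.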

How the results depend on the processing

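The number of members called for the difference, 1 below and 1 above 0, depended on the processing. It was 82 and 40 in the authors' log2 values, 36 and 7 when quantile normalization was run on uncorrected signals, 37 and 9 for the larger offset (50), 34 and 13 with trend and robust moderation, 3 and 1 without a detection filter, 1 and 0 at a detection p below 0.01, and 0 and 1 with median scaling. With the replicate number as a block it was 0 and 0, and 0 and 0 without each array in turn. Same-numbered samples did not deviate together over genes (correlations of -0.062 to 0.108). With 2 arrays per group this cannot tell whether they were set up together. Calls for IL-1 in siCon cells (1869) were 2813 in the authors' values and 1112 with median scaling, and 1014 to 1606 without 1 array. Calls for IL-1 in siHDAC6 cells (907) were 1747, 376, 1442 with trend and robust moderation, and 447 to 893 without 1 array. Calls for siHDAC6 without IL-1 (402) were 1081 in the authors' values, 787 without background correction, 822 with the larger offset, 130 with median scaling, 919 with trend and robust moderation, and 92 to 388 without 1 array. Calls for siHDAC6 with IL-1 (720) were 1569, 1176, 1240, 174 and 1369 in the same order, and 131 to 519 without 1 array. The median difference of the raised members was -0.22 in the authors' values, -0.26 without background correction, -0.26 with the larger offset, -0.074 with median scaling, -0.27 without a detection filter, and -0.32 to -0.29 without 1 array. That of the lowered members was 0.17, 0.20, 0.21, 0.50 and 0.22 in this order, and 0.24 to 0.27 without 1 array. Median scaling also moved the split at an unadjusted p under 0.05 to 17 below and 284 above 0. The difference of ACAT2 was -0.17 with the probe of highest mean and with probes detected on all 8 arrays, and that of NFKBIA, 0.13 without siCon replicate 1, was -0.088, -0.06 and -0.03 without siCon replicate 2, siCon + IL-1 replicate 1 and siHDAC6 + IL-1 replicate 1. The causes were not tested.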
